A study of Rattus norvegicus with 9 samples.

Results

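The miR-7 family was followed in small RNA libraries of cultured rat cartilage progenitor cells. Its members were all rows of the deposited miRNA table named miR-7a or miR-7b, with any copy number and with or without an arm suffix, which gave 4 of 726 rows. These were rno-miR-7a-5p (miR-7a-5p below), miR-7b, miR-7a-1-3p and miR-7a-2-3p. The family was chosen by the level of miR-7a-5p set against the 3p arms in P9, FFSS and P3, known from earlier results, so the values of these rows are a description and carry no test.

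The cells were primary wild-type cultures from condylar cartilage. The 9 libraries fell into 3 groups of 3. P9 cells had been cultured to passage 9, the replicative senescence model. FFSS cells were passage 3 cells under flow fluid shear stress, the drag of moving medium, used as a model of degeneration. P3 cells were passage 3 cells without it and served as the control of both. The labels do not say whether the replicates were separate cultures or animals, so a p-value reflects the spread of these libraries alone, which may be technical.

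A miRNA is cut from a hairpin RNA with a 5p and a 3p arm. One arm, the guide, is loaded into an Argonaute protein and represses mRNAs that pair with its seed, and the other, the passenger, is mostly discarded. Copies of a miRNA gene can make the same guide but differ in the passenger, so passenger reads show which copy the passenger came from. In mammals miR-7 is most abundant in brain, pituitary and pancreatic islets, and its known targets include the growth factor receptor gene Egfr and the insulin signalling genes Irs1 and Irs2. The mature guide is also known to be bound by the circular RNA Cdr1as and destroyed on pairing with the long non-coding RNA Cyrano (Oip5-as1), a process named target-directed miRNA degradation, which removes the guide and not the passenger.

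The mature sequences are shown because the seed is common to the guides while the passengers tell the copies apart. All 4 rows had a RefSeq mature sequence (build GRCr8). Capitals mark bases 2 to 8 from the 5′ end, the seed.
miR-7a-5p: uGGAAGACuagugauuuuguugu
miR-7b: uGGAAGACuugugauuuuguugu
miR-7a-1-3p: aCAACAAAucacagucugccau
miR-7a-2-3p: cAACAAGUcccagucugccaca
The 2 guides had the same seed, and among the 578 table rows with a RefSeq mature sequence these 2 were the ones with this seed. Over 23 bases miR-7b differed from miR-7a-5p at 1 base, A10U, counted from the 5′ end of miR-7a-5p. The 3p arms differed at 3 of 21 aligned bases, A8G, A11C and U22C, counted from the 5′ end of miR-7a-1-3p. Reads of the 3p arms can therefore be told apart more safely than reads of miR-7a-5p and miR-7b. The sources used here do not say how the counter treated reads with 1 mismatch.

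The hairpins are printed to show where each arm lies and that the miR-7a guide is the same in both miR-7a copies. Capitals mark the mature arms listed by RefSeq.
miR-7a-1 hairpin: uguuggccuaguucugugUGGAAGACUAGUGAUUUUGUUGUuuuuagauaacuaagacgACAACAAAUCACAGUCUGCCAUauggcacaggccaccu
miR-7a-2 hairpin: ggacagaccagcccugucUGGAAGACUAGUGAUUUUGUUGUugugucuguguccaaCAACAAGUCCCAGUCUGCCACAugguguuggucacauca
miR-7b hairpin: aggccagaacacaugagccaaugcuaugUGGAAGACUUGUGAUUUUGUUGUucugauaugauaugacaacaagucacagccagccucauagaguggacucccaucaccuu
The miR-7a-1 hairpin lies at chr17:6278692-6278788 on the plus strand of GRCr8, inside the span of Hnrnpk, which encodes an RNA-binding protein. The miR-7a-2 hairpin lies at chr1:142215800-142215894 on the plus strand, inside the lncRNA gene LOC120099863. The miR-7b hairpin lies at chr9:1167436-1167545 on the plus strand, inside the span of the pseudogene Rpl35l3. The submitters' notes name the older build Rnor_6.0, and the coordinates of GRCr8 were used for location only.

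miRNA reads came to between 7614513 and 8177357 in the P9 libraries, 2878910 to 7082142 in FFSS and 7522702 to 8862560 in P3, so FFSS replicates 1 and 3 were the shallowest. Across the 439 miRNAs that passed a filter on low counts, log2(CPM + 1) of P9 replicates 1 and 2 correlated at 0.995, while P9 replicate 3 reached 0.963 and 0.970 with them and 0.976 with P3 replicate 2. P9 replicate 3 thus stood apart from its group, and the changes of the miR-7 rows and the calls in the lists below are also given without it. The FFSS group was not uniform either. FFSS replicate 1 reached 0.967 with FFSS replicate 2 and 0.977 with FFSS replicate 3, while FFSS replicate 2 reached 0.975 with P3 replicate 1. FFSS replicate 1 is among the libraries left out 1 at a time below. CPM is the count scaled to a library total of 1000000 miRNA reads. The cartilage miRNA miR-140-3p was present in all groups, at 2540 ± 483 CPM in P9, 5579 ± 775 CPM in FFSS and 4810 ± 1478 CPM in P3 (SD, n = 3 each). It was 1 of 4 cartilage miRNAs read, which did not all differ in 1 direction between FFSS and P3. Means in P3 and FFSS were 826 and 693 CPM for miR-140-5p, 458 and 332 CPM for miR-455-5p, and 75.4 and 103 CPM for miR-455-3p. In the edgeR fit described below 0 of the 4 were called in either comparison with P3. For P9 against P3, however, all 4 had negative log2 fold changes. These were -0.86 for miR-140-3p, -1.12 for miR-140-5p, -0.26 for miR-455-5p and -0.35 for miR-455-3p. At an unadjusted p under 0.05 in edgeR stood 2 of them, both arms of miR-140, and DESeq2 called 1 and limma 0. For P9 against FFSS 1 was called, miR-140-3p, lower in P9 (log2 fold change -1.065, SE 0.274, adjusted p = 0.00953, edgeR), beside 34.4% of all 439.

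miR-7a-5p was an abundant guide in these cells and was low under shear stress. In cultures measured as a whole, fewer cells with a miRNA and less of it per cell cannot be told apart. miR-7a-5p had 7354, 11119 and 8435 CPM in the P9 libraries, 1979, 2485 and 1169 CPM in the FFSS libraries, and 4699, 7951 and 5454 CPM in the P3 libraries. Each FFSS library lay below each P3 and each P9 library, while the P9 and P3 ranges overlapped. Among the 439 miRNAs, 22.6% had all FFSS libraries below all P3 libraries and 23% had all P9 libraries above all FFSS libraries. Because the row was chosen with these contrasts in view, nothing is read from its place among them. Means were 8969 ± 1939 CPM in P9, 1878 ± 664 CPM in FFSS and 6035 ± 1702 CPM in P3 (SD, n = 3 each).

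In rank, miR-7a-5p stood 21st, 17th and 18th of the 726 rows in the P9 libraries, 43rd, 41st and 56th in FFSS, and 29th, 21st and 26th in P3. Its share of all miRNA reads was 0.735%, 1.11% and 0.843% in P9, 0.198%, 0.249% and 0.117% in FFSS, and 0.47%, 0.795% and 0.545% in P3. FFSS replicate 3 had the lowest share and P9 replicate 2 the highest.

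The fitted log2 fold change of miR-7a-5p, from 1 edgeR model of all 9 libraries with TMM scaling, was -1.72 (SE 0.38) for FFSS against P3, a level 3.3-fold lower in FFSS. It was 0.617 (SE 0.371) for P9 against P3 and 2.34 (SE 0.388) for P9 against FFSS, the last a 5.06-fold difference. Both comparisons with P3 use the same 3 P3 libraries. Without P9 replicate 3 the values were -1.776 for FFSS against P3, 0.620 for P9 against P3 and 2.40 for P9 against FFSS. Leaving out 1 library at a time kept FFSS against P3 between -2.05 and -1.44. P9 against P3 lay between 0.380 without P3 replicate 1 and 0.962 without P3 replicate 2, the P3 libraries with the lowest and the highest miR-7a-5p level. Both of these moved it by more than 1.5 times.

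miR-7b, the other guide with this seed, was rare. It had 44, 47 and 69 reads in P9, 3, 10 and 12 reads in FFSS, and 27, 47 and 27 reads in P3. In CPM these were 5.78, 5.97 and 8.44 in P9, 1.04, 1.41 and 3.08 in FFSS, and 3.21, 6.25 and 3.05 in P3. The FFSS and P3 ranges met, since FFSS replicate 3 reached the level of P3 replicate 3, and the P9 libraries lay above all FFSS libraries. The fitted log2 fold changes were -1.27 (SE 0.517) for FFSS against P3, 0.742 (SE 0.455) for P9 against P3 and 2.01 (SE 0.513) for P9 against FFSS. They were -1.33, 0.494 and 1.83, in the same order of comparisons, without P9 replicate 3. The value for P9 against P3 moved by more than 1.5 times on leaving out any of 3 libraries, that one, P3 replicate 1 (0.487) or P3 replicate 2 (1.26).

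miR-7b thus had fitted changes of the same sign as miR-7a-5p in each comparison. It made up 0.0785%, 0.0537% and 0.0999% of the reads of both guides in the P9 libraries, 0.0526%, 0.0568% and 0.263% in FFSS, and 0.0683%, 0.0785% and 0.0558% in P3. The share in FFSS replicate 3 rested on 12 reads and had an exact 95% binomial interval of 0.136% to 0.459%, above those of the other libraries except FFSS replicate 1, whose interval reached 0.154%. Intervals cover counting error only, since reads without molecular identifiers are not independent molecules. With 1 base between the guides, misread or mismatched miR-7a-5p reads could enter the miR-7b row, and their part in it was not tested.

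**Figure D1:**
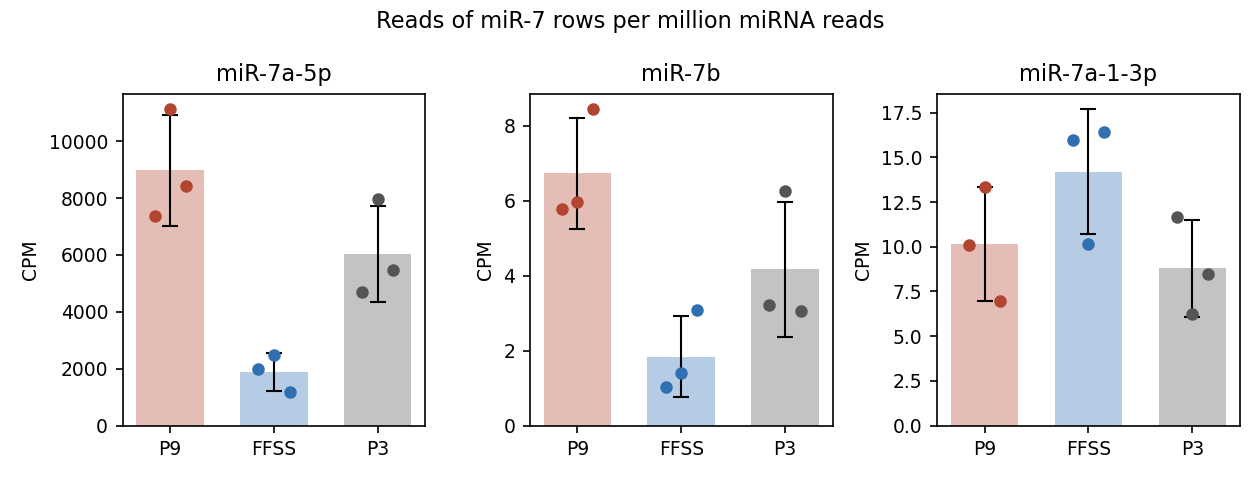
Level in CPM (linear axes from 0) of miR-7a-5p, miR-7b and miR-7a-1-3p in P9, FFSS and P3. Points are libraries, bars are means and error bars are SD (n = 3). The 3 FFSS points of miR-7a-5p, 1169 to 2485 CPM, lie below all P9 and P3 points, whereas those of miR-7a-1-3p, 10.2 to 16.4 CPM, overlap both other groups.

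The passenger of the first copy, miR-7a-1-3p, did not share the low level of the guide in FFSS. It had 77, 105 and 57 reads in P9, 46, 72 and 64 reads in FFSS, and 98, 47 and 75 reads in P3. As CPM these were 10.1, 13.3 and 6.97 in P9, 16.0, 10.2 and 16.4 in FFSS, and 11.7, 6.25 and 8.46 in P3. All 3 groups overlapped, with FFSS replicates 1 and 3 the highest. Means were 10.1 ± 3.19 CPM in P9, 14.2 ± 3.49 CPM in FFSS and 8.79 ± 2.72 CPM in P3 (SD, n = 3 each). The fitted log2 fold change was 0.66 (SE 0.382) for FFSS against P3, positive where that of the guide was negative. It was 0.295 (SE 0.377) for P9 against P3 and -0.36 (SE 0.380) for P9 against FFSS. These 3 values were 0.592, 0.465 and -0.13 without P9 replicate 3. With so few reads, single libraries moved them by more than 1.5 times while their signs held. FFSS against P3 stood at 0.381 without FFSS replicate 1. P9 against P3 stood at 0.032 when P9 replicate 2 was left out, 0.157 and 0.443 when P3 replicate 2 or 1 was, and P9 against FFSS at -0.21 and -0.57 without P9 replicate 1 and 2, and at -0.08 without FFSS replicate 1.

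The passenger of the second copy, miR-7a-2-3p, was nearly absent. It had 1 read in P9 replicate 1, 1 read in FFSS replicate 2 and 0 reads in the other libraries, and it did not pass the filter on low counts that the other 3 rows passed. In the P3 group, 0 of 24795992 miRNA reads allows a level of up to 0.121 CPM, taking 3 counts over the group as the limit. Of all 643 reads on the 3p arms of miR-7a, 2 came from the second copy, which is 0.311% (exact 95% binomial interval 0.038% to 1.12%). By group the share was 1 of 240 reads in P9, 1 of 183 in FFSS and 0 of 220 in P3, whose intervals reached 2.3%, 3.01% and 1.66%. Nearly all 3p reads thus carried the sequence of the copy inside Hnrnpk, in every group. The guide itself is identical in both copies, so its reads cannot be divided between them.

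**Figure D2:**
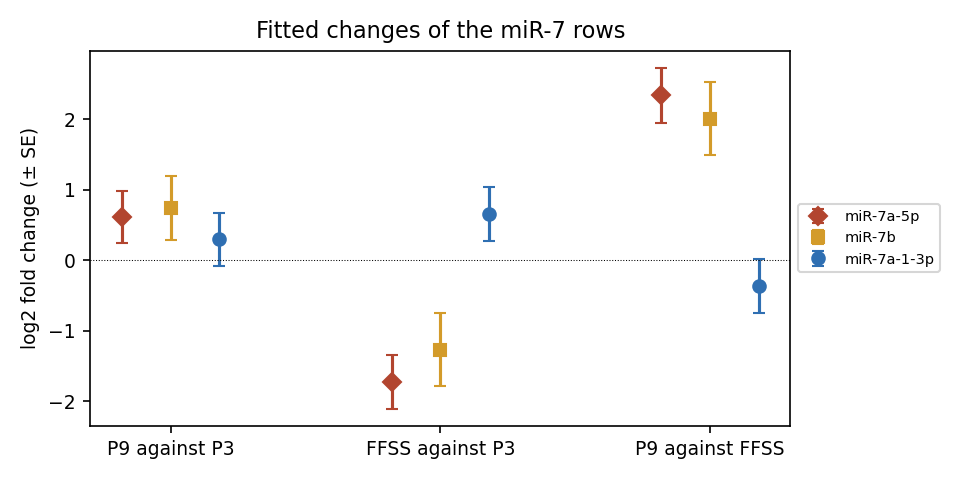
Fitted log2 fold change (vertical axis, error bars SE) of the 3 miR-7 rows that passed the filter, in the 3 comparisons of P9, FFSS and P3. In FFSS against P3 the guides miR-7a-5p (-1.72) and miR-7b (-1.27) lie below 0 and the passenger miR-7a-1-3p (0.66) lies above it.

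Guide and 3p reads were counted in the same library, so no scaling between libraries enters their ratio. The guide reads may come from both miR-7a copies, whereas nearly all 3p reads carried the sequence of the first. There were 718, 833 and 1210 miR-7a-5p reads per 3p read in the P9 libraries, 124, 241 and 71.2 in the FFSS libraries, and 403, 1273 and 645 in the P3 libraries. The FFSS libraries lay below all others, and P9 and P3 overlapped. As log2 of the ratio, with 0.5 added to each count, the means were 9.80 ± 0.386 in P9, 6.99 ± 0.882 in FFSS and 9.42 ± 0.83 in P3 (SD, n = 3 each).

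The difference in this log2 ratio was -2.43 for FFSS against P3, which is 5.38-fold fewer guide reads per passenger read in FFSS. It was 0.378 for P9 against P3 and 2.81 for P9 against FFSS. Without FFSS replicate 3, the library with the lowest ratio, FFSS against P3 stood at -2.003, and without P3 replicate 2, which had the highest, at -1.99. Without P9 replicate 3 the value was 2.59 for P9 against FFSS and 0.164 for P9 against P3. The direction for P9 against P3 was not stable, at -0.01 without P3 replicate 1 and 0.815 without P3 replicate 2.

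**Figure D3:**
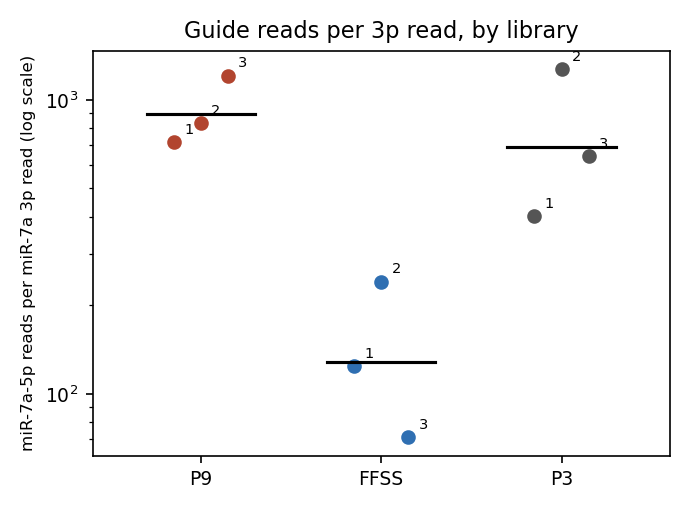
Number of miR-7a-5p reads per read of the summed miR-7a 3p rows (log axis) in each library, labelled by replicate number, with horizontal lines at the geometric mean of each group. The FFSS libraries, at 71.2 to 241, lie below the lowest P3 library at 403 and the lowest P9 library at 718.

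The same ratio was formed wherever guide and passenger each had at least 20 reads on average, which gave 100 others beside miR-7a. With numbered copies, the arm without a number was taken as the guide and the numbered rows of the other arm were summed. In all other hairpins the arm with more reads was taken as the guide. For FFSS against P3 the other 100 had a median difference of -0.039, with quartiles of -0.635 and 0.422, and ran from -2.31 for miR-376b-3p to 1.93 for miR-152-3p. The value of miR-7a, -2.43, lay below all 100. Not all of the 100 are independent rows. The guides miR-378a-3p and miR-3557-5p had nearly the same mean count, as did miR-130a-3p and miR-3590-5p. For P9 against FFSS the others ran from -2.40 for miR-322-3p to 2.02 for miR-34c-5p around a median of 0.019, and miR-7a, at 2.81, lay above all 100. In the miR-322 hairpin the 3p arm had more reads, so miR-322-5p, listed below as a guide, entered here as the passenger. With miR-322-5p as the guide, the values -2.40 and 1.638 (FFSS against P3) would change sign. They would then have the signs of those of miR-7a. For P9 against P3 the value of miR-7a, 0.378, had 93 others below it and 7 above. Among all 101, miR-7a included, 18.8% had all FFSS libraries below all P3 libraries in this ratio and 15.8% had all P9 libraries above all FFSS libraries, so a shifted ratio was in itself common here. These places are a description, since the ratio was part of how the rows were chosen.

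Other guides made from numbered hairpin copies gave the nearest comparison. Of 21 such guides in the table, 12 had enough reads on both arms. Their differences for FFSS against P3 ran from -0.61 for miR-129-5p to 0.400 for miR-24-3p, with a median of -0.048, so the nearest to miR-7a was miR-129-5p, a neuronal miRNA, whose 2 passenger rows held identical counts. The abundant guides let-7f-5p, let-7c-5p and miR-125b-5p, members of families known for roles in differentiation, stood at -0.27, 0.396 and -0.08.

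**Figure D4:**
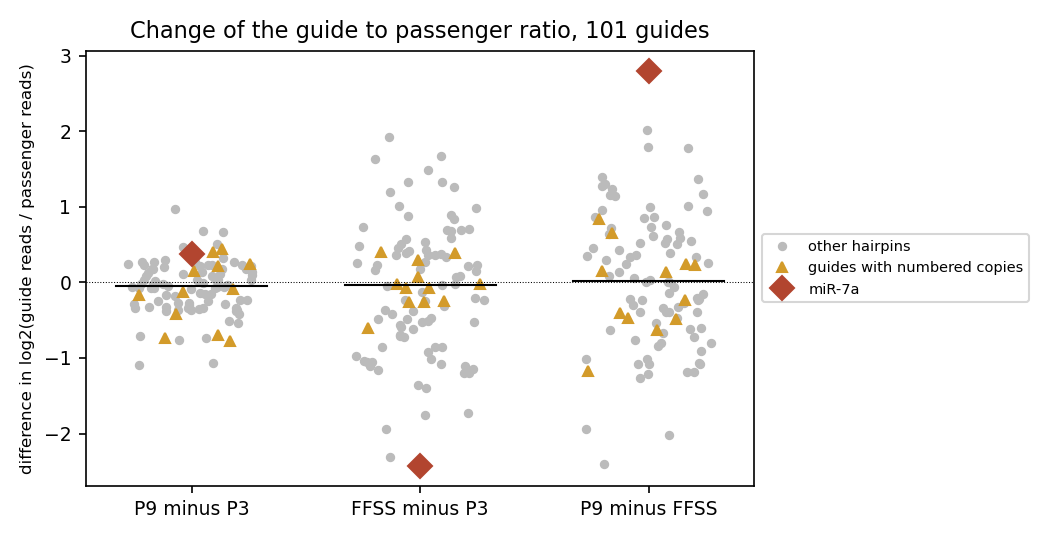
Difference between groups in log2 of guide reads over passenger reads (vertical axis) for 101 guides. Diamonds are miR-7a, triangles the 12 other guides with numbered hairpin copies, grey points the remaining hairpins, and horizontal lines the median of the 100 others. The diamond lies below all other points for FFSS minus P3, at -2.43, above all of them for P9 minus FFSS, at 2.81, and within them for P9 minus P3, at 0.378.

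Levels of these other guides were tested in the edgeR fit over all 439 miRNAs, in which 20.5% were called for FFSS against P3, 7.29% for P9 against P3 and 34.4% for P9 against FFSS, at a Benjamini-Hochberg adjusted p under 0.05. Of the 21 guides with numbered copies, 18 passed the filter. For FFSS against P3, miR-24-3p, of the miR-23/27/24 clusters, was higher (log2 fold change 0.837, SE 0.270, adjusted p = 0.0459, edgeR) and miR-17-5p, of the proliferation cluster miR-17-92, was lower (-1.18, SE 0.382, adjusted p = 0.0459, edgeR). The median of the 18 was -0.01, against 0.024 for all miRNAs. Both calls were lost with limma on log2(TPM + 1), that on miR-24-3p also with no filter (adjusted p = 0.0985, edgeR), and that on miR-17-5p also with DESeq2 size factors (0.051), library size alone (0.0688) and a mean of at least 50 counts (0.0606, edgeR). Leaving out 1 library ended the call on miR-24-3p in 7 of 9 fits (all but P9 replicate 3 and FFSS replicate 1; adjusted p up to 0.186, edgeR), and that on miR-17-5p in 5 of 9 (without P9 replicate 2, FFSS replicate 2 or 3, or P3 replicate 1 or 3; up to 0.136). For P9 against P3, edgeR, DESeq2 and limma called 0 of the 18, and 0 had an unadjusted p under 0.05. For P9 against FFSS the same 2 miRNAs were called, with miR-17-5p higher (1.20, SE 0.383, adjusted p = 0.0292, edgeR) and miR-24-3p lower (-0.89, SE 0.271, adjusted p = 0.0229, edgeR). Their calls were lost in 4 of 9 such fits for miR-17-5p (P9 replicate 1 or 2, FFSS replicate 2 or 3; up to 0.0893) and in 7 of 9 for miR-24-3p (all but P9 replicate 3 and FFSS replicate 1; up to 0.155). The call on miR-17-5p was also lost with limma (adjusted p = 0.0817), and that on miR-24-3p with P9 and FFSS fitted alone (0.063, edgeR). Without P9 replicate 3 edgeR called 4, 0 and 4 of the 18 for FFSS against P3, P9 against P3 and P9 against FFSS. Over all miRNAs it then called 147, 51 and 203, against 90, 32 and 151 with all libraries.

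The other miRNA tied to the Cdr1as circle is miR-671, which is known to pair with Cdr1as almost fully and to direct its cleavage. It ran from 10.9 to 32.2 CPM in P9, 19.8 to 54.4 CPM in FFSS and 16.7 to 27.7 CPM in P3. FFSS replicates 2 and 3 were the highest, and all groups overlapped. Its log2 fold change was 0.827 (SE 0.458, adjusted p = 0.21, edgeR) for FFSS against P3, -0.08 (SE 0.456, adjusted p = 0.956, edgeR) for P9 against P3 and -0.91 (SE 0.460, adjusted p = 0.136, edgeR) for P9 against FFSS, and none passed. The last was -1.53 and passed without P9 replicate 3 (adjusted p = 0.00494, edgeR). In that fit 203 miRNAs were called, against 151 with all libraries. The circle and Cyrano themselves are not miRNAs and were not analysed here.

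Guides other than miR-7 for which target-directed degradation is known were miR-29b-3p, miR-30b-5p, miR-30c-5p, miR-322-5p and miR-503-5p. In FFSS against P3 edgeR called 0 of these 5, with a median log2 fold change of 0.28, against 0.024 for all miRNAs. At an unadjusted p under 0.05 stood 2, miR-30b-5p (1.005, SE 0.385, adjusted p = 0.0797, edgeR) and miR-30c-5p (0.675, SE 0.236, adjusted p = 0.06, edgeR), both with positive values, and DESeq2 called 2 and limma 0. miR-29b-3p, which represses collagen genes, stood at 0.285 (adjusted p = 0.481, edgeR), miR-503-5p at -0.11 (0.895) and miR-322-5p at -1.07 (SE 0.519, adjusted p = 0.157, edgeR). Without P9 replicate 3, which enters this comparison through the spread shared by all groups, edgeR called 3 of the 5, miR-30b-5p (0.965, adjusted p = 0.035), miR-30c-5p (0.613, 0.0455) and miR-322-5p (-1.13, 0.0272). Calls over all miRNAs rose in that fit as well, from 90 to 147.

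For P9 against P3 edgeR also called 0 of the 5, DESeq2 and limma 0, and 1 had an unadjusted p under 0.05, miR-322-5p (1.26, SE 0.499, adjusted p = 0.186, edgeR). The median was 0.19, against 0.062 for all miRNAs. The remaining values were -0.46 for miR-29b-3p (adjusted p = 0.47, edgeR), -0.13 for miR-30b-5p (0.938), 0.186 for miR-30c-5p (0.772) and 0.534 for miR-503-5p (0.61). With P9 replicate 3 left out, edgeR called 1 of the 5, miR-322-5p (1.685, adjusted p = 0.00613). Calls over all miRNAs then rose from 32 to 51.

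For P9 against FFSS 2 of the 5 were called, in opposite directions, beside 34.4% of all 439 miRNAs. miR-322-5p, which restrains the cell cycle, ran from 11.3 to 56.6 CPM in P9 and from 4.52 to 9.75 CPM in FFSS, so the groups did not overlap, and it was higher in P9 (2.34, SE 0.53, adjusted p = 0.00487, edgeR). The call held whichever of the 9 libraries was left out (adjusted p up to 0.0175, edgeR). miR-30b-5p had 241, 202 and 95.1 CPM in P9 and 564, 281 and 386 CPM in FFSS and was lower in P9 (-1.14, SE 0.386, adjusted p = 0.0374, edgeR), a call lost in 8 of 9 such fits, all but the one without FFSS replicate 2 (up to 0.198), and with P9 and FFSS fitted alone (0.0824). miR-29b-3p, miR-30c-5p and miR-503-5p stood at -0.75, -0.49 and 0.645 (adjusted p = 0.0577, 0.118 and 0.319, edgeR).

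Endocrine and neuronal miRNAs, which mark the tissues where miR-7 is most abundant, were read from a list of 12, of which 10 were analysed and 7 passed the filter. miR-375-3p, the defining islet miRNA, was near 0 at 0.797 ± 0.421 CPM in P9, 1.55 ± 0.529 CPM in FFSS and 0.475 ± 0.182 CPM in P3 (SD, n = 3 each). The neuronal miR-124-3p stood at 0.163 ± 0.282 CPM in P9, 0.784 ± 0.570 CPM in FFSS and 0.245 ± 0.123 CPM in P3. The most abundant of the list was miR-128-3p, a brain-enriched miRNA, at 888 ± 520 CPM in P9, 838 ± 427 CPM in FFSS and 852 ± 316 CPM in P3. The summed level of the 10 ran from 1494 to 2858 CPM in P9, 1439 to 2521 CPM in FFSS and 1331 to 2185 CPM in P3, so the groups overlapped.

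In FFSS against P3, DESeq2 called 3 of the 7 and limma 1. In edgeR 2 of the 7 were higher and 0 lower, both arms of the miR-9a hairpin, beside 20.5% of all 439 miRNAs called. These were miR-9a-5p (1.21, SE 0.394, adjusted p = 0.0464, edgeR), which held nearly the same counts as miR-9b-3p, and miR-9a-3p (1.75, SE 0.54, adjusted p = 0.0399, edgeR). Each was lost in 7 of 9 fits that left out 1 library. For miR-9a-5p the exceptions were P9 replicate 3 and FFSS replicate 2 (adjusted p up to 0.214, edgeR), and for miR-9a-3p P9 replicate 3 and FFSS replicate 1 (up to 0.182). Both were lost with no filter (adjusted p = 0.0679 and 0.0901, edgeR) and miR-9a-3p also with limma (0.0507). For P9 against P3 edgeR called 0 of the 7, with 1 at an unadjusted p under 0.05 and 1 called by DESeq2 and 0 by limma. For P9 against FFSS DESeq2 and limma each called 3 of the 7, and edgeR called 2, beside 34.4% of all 439 miRNAs. These 2 were lower, miR-383-5p (-3.99, SE 0.761, adjusted p = 0.00212, edgeR) and miR-9a-3p (-1.77, SE 0.545, adjusted p = 0.0246, edgeR), the second lost without FFSS replicate 2 or 3, and without P9 replicate 1 or 2 (up to 0.151), and with no filter (0.0629). Both rested on few reads. miR-383-5p had 0.131, 0.381 and 1.10 CPM in P9 and 2.43, 14.7 and 11.8 CPM in FFSS. miR-9a-3p had 1.05, 0.763 and 0.856 CPM in P9, 1.39, 4.52 and 3.59 CPM in FFSS, and 0.594 to 1.24 CPM in P3. In the P9 libraries 3 reads are 0.367 to 0.394 CPM. Without P9 replicate 3, when 8 of the list passed the filter, edgeR called 3, 1 and 3 for FFSS against P3, P9 against P3 and P9 against FFSS, the 1 being miR-383-5p (-3.255, adjusted p = 0.0199). Over all miRNAs it then called 147, 51 and 203, against 90, 32 and 151 with all libraries.

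Markers of other cell types were read in the same libraries. The summed blood, epithelial and muscle miRNAs, and the single endothelial and liver miRNAs, were higher in each FFSS library than in each P3 library. Of the 439 single miRNAs, 18.9% had all FFSS libraries above all P3 libraries. The 5 fibroblast and mesenchyme miRNAs did not share this. Their sums ran from 165040 to 249570 CPM in P9, 88414 to 144620 CPM in FFSS and 123700 to 135420 CPM in P3. For FFSS against P3 edgeR called 1 of these 5, miR-145-5p, as lower (-1.57, SE 0.338, adjusted p = 0.00944), beside 20.5% of all 439 called. The 6 blood miRNAs summed to 69.5 to 307 CPM in P9, 167 to 592 CPM in FFSS and 75.7 to 156 CPM in P3, with miR-144-3p at 0 in all P3 libraries. For FFSS against P3, 3 of 4 tested blood miRNAs stood at an unadjusted p under 0.05 in edgeR, miR-142-5p, miR-451-5p and miR-486, all with positive values. DESeq2 called 3 and limma 1, beside 117 and 75 over all miRNAs. After adjustment edgeR called 1 as higher, miR-142-5p (1.53, SE 0.486, adjusted p = 0.0437). This call was lost in 7 of 9 fits that left out 1 library, all but P9 replicate 1 and P9 replicate 3 (up to 0.166). The endothelial miR-126a-3p ran from 269 to 489 CPM in P9, 551 to 686 CPM in FFSS and 377 to 399 CPM in P3, and the 6 epithelial miRNAs summed to 17.2 to 32.7 CPM in P9, 32.3 to 82.7 CPM in FFSS and 28.3 to 29.6 CPM in P3, with miR-200b-3p higher in FFSS against P3 (adjusted p = 0.0399, edgeR), a call lost in 6 of 9 such fits, all but P9 replicate 3 and FFSS replicates 2 and 3 (up to 0.178). The liver miRNA miR-122-5p ran from 3.43 to 22.9 CPM in P9, 15.5 to 51.4 CPM in FFSS and 9.87 to 11.7 CPM in P3. The 5 muscle miRNAs summed to 151 to 534 CPM in P9, 189 to 538 CPM in FFSS and 141 to 158 CPM in P3. For FFSS against P3 edgeR called 0 of 4 tested muscle miRNAs, with 1 at an unadjusted p under 0.05, and DESeq2 and limma called 0. The part of these markers in the level of miR-7a-5p was not tested.

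The nearest miRNAs in abundance were set beside the guide. Ordered by mean CPM over the 9 libraries miR-7a-5p was 25th, between miR-221-3p and miR-100-5p above it and miR-30d-5p and miR-23b-3p below it. For FFSS against P3 the log2 fold changes of these neighbours were -0.66, 0.320, 0.071 and 0.619, against -1.72 for miR-7a-5p.

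The miRNAs with a pattern most like that of miR-7a-5p were sought by the root mean square difference of log2(CPM + 1), with TMM scaling and each row centred on its mean over the 9 libraries, among 297 miRNAs averaging 50 counts or more. The smallest difference, 0.262, was that of miR-221-5p, the less abundant arm of its hairpin, at 639 ± 114 CPM in P9, 107 ± 18.9 CPM in FFSS and 423 ± 37.9 CPM in P3 (SD, n = 3 each). Next came miR-376c-3p (0.435), miR-409a-3p (0.458), miR-409b (0.459) and miR-382-3p (0.473), all encoded in the imprinted Dlk1-Dio3 region. miR-409a-3p and miR-409b held nearly the same counts and are not 2 independent rows. Their order rests on 9 libraries in 3 groups that also differ in depth.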

How the data were processed

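Small RNA of 9 libraries was sequenced from 1 end. Per the submitters' processing notes, Bowtie and the build Rnor_6.0 were used; the sources used here name no counter or annotation release. Per the file headers, the table holds read counts per miRNA and TPM values. The deposited TPM equalled the count over the library total (largest difference 4.85e-05), so it is CPM with no length term. The members and lists were chosen with earlier results of these data known.

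Counts were analysed as deposited with edgeR 4.0.16 in R 4.3.3: filterByExpr (439 miRNAs kept), TMM, 1 model without intercept for all 9 libraries, and the robust quasi-likelihood test with Benjamini-Hochberg adjustment. limma 3.58.1 and DESeq2 1.42.0 were alternatives, tested beside other scalings, filters, subsets and left-out libraries. The test was checked on simulated data. Named were all members, all tested members of the Cdr1as and degradation lists, the called and most abundant endocrine and neuronal miRNAs, the 4 numbered-copy guides with the most reads and those nearest miR-7a in ratio, the 5 most alike and the 4 nearest in level. Others were named after their values were seen.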

Additional observations from a re-analysis of the deposited data

Results flagged for a closer look

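The following differed between P9 and FFSS. miR-7a-5p lay above the P3 mean in all 3 P9 libraries and below it in all 3 FFSS libraries (P9 against FFSS log2 fold change 2.34), as did miR-7b (2.01) and the log2 ratio of miR-7a-5p to its 3p arms (2.81); these differences were not tested, because the rows were chosen for them. In edgeR's quasi-likelihood test P9 and FFSS also differed for miR-322-5p (2.34, adjusted p = 0.00487), miR-30b-5p (-1.14, adjusted p = 0.0374), miR-383-5p (-3.99, adjusted p = 0.00212) and miR-9a-3p (-1.77, adjusted p = 0.0246). In this comparison 34.4% of the 439 miRNAs were called. Leaving out 1 library ended the call on miR-30b-5p in 8 of 9 fits and that on miR-9a-3p in 4 of 9. Those on miR-322-5p and miR-383-5p were lost in 0 of 9, the latter at few reads in P9. miR-322-5p was higher in 3 of 3 P9 libraries than in any FFSS library, as were 23% of the 439. miR-30b-5p, miR-383-5p and miR-9a-3p were lower in 3 of 3, a pattern whose share over all miRNAs was not counted.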

How the results depend on the processing

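Under each alternative scaling, filter and tool, the log2 fold change of miR-7a-5p moved by less than the spread between replicates (0.431), as did its log2 ratio to the 3p arms (0.734) with 1 or 5 added to each count or with miR-7a-1-3p alone. Leaving out 1 library gave, for the fold change, 0.380 to 0.962 (P9 against P3), -2.05 to -1.44 (FFSS against P3) and 2.05 to 2.65 (P9 against FFSS), and for the ratio, in the same order of comparisons, -0.01 to 0.815, -2.88 to -1.99 and 2.38 to 3.26; the ratio for P9 against P3 changed sign without P3 replicate 1 (-0.01). The number of miRNAs called in that order was then 16 to 51 (32 with all libraries), 36 to 147 (90) and 109 to 203 (151). The number called among members of the degradation, Cdr1as, endocrine and neuronal, and numbered-copy lists was 0 to 2 (0), 0 to 9 (4) and 2 to 9 (6). It was 1 for P9 against P3 in DESeq2. For FFSS against P3 it was 1 with no filter and on log2(TPM + 1), and 8 in DESeq2 and with only FFSS and P3 fitted. For P9 against FFSS it was 10 with library size alone and in DESeq2. The cause was not tested. Libraries with the same replicate number did not deviate together (correlations of -0.502 to 0.144), so the numbers were not taken as pairs; with a replicate block, FFSS against P3 gave 51 miRNAs and 0 list members, and miR-7a-5p stood at -1.711, 0.645 (P9 against P3) and 2.357 (P9 against FFSS). The ratio under the block equals the reported one because each number occurs once per group. Of the other single results under alternatives, 1343 stayed the same, 94 lost a call, 49 gained one and 19 moved by more than the spread without a call. Staying the same meant that a call held, or that a value without a call moved by less than the spread. The latter includes the values of miR-7b and miR-7a-1-3p, which were not tested. Few reads limit the 3p arm and miR-7b.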
